A study of Homo sapiens with 36 samples.

Results

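FBRSL1, ANKRD11, UCKL1 and MACROD1 are 4 human genes that carried many windows enriched in eCLIP of EIF4B. They were chosen by their number of EIF4B windows, so that number is given as a description only. They are 4 of the 10082 genes with an EIF4B window, and together they held 562 of the 68716 windows of the EIF4B list. EIF4B, a translation initiation factor, and 8 other proteins (CPSF5, CPSF6, GRB2, LGALS3, MBNL2, RBM10, RBM22 and RNPS1) were assayed by enhanced crosslinking and immunoprecipitation in HEK293T, an embryonic kidney cell line. All groups were of this line, with no treatment. Each protein had 2 immunoprecipitated (IP) libraries and 2 input libraries, 36 libraries in all. Antibodies recognised either the assayed protein or a V5 tag, and the labels do not say which kind served EIF4B. The labels do not say whether the replicates were separate cultures.

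EIF4B stimulates the RNA helicase EIF4A, which unwinds the 5′ ends of mRNAs so that ribosomes can load, and it acts in the cytoplasm on spliced mRNA. Introns are removed in the nucleus, and most intronic RNA is degraded there. FBRSL1 (fibrosin-like 1) is a relative of AUTS2, a nuclear regulator of transcription. ANKRD11 is a large nuclear ankyrin-repeat protein that regulates transcription, and UCKL1 is related to the uridine-cytidine kinases of pyrimidine salvage. MACROD1 removes ADP-ribose from proteins and resides mainly in mitochondria.

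In GRCh38.p14 as annotated by RefSeq, FBRSL1 (ENSG00000112787.14) lies on the plus strand at chr12:132490151-132585188. ANKRD11 (ENSG00000167522.16) lies on the minus strand at chr16:89267630-89490561, UCKL1 (ENSG00000198276.16) on the minus strand at chr20:63939829-63956416, and MACROD1 (ENSG00000133315.12) on the minus strand at chr11:63998558-64166113. Symbols of all 4 genes matched the RefSeq table. Each gene had an EIF4B window at its annotated start, in the 5′ UTR, and the first 30 transcribed bases inside that window are shown because this is the kind of site at which EIF4B is known to act. The 4 starts are given 5′ to 3′, with no base in capitals because no motif was searched for.
FBRSL1, chr12:132490151-132490180: gtcagttgttatctgttcggggcgccgccg
ANKRD11, chr16:89490532-89490561: agaggccgccctgagacggtgcgcgatgga
UCKL1, chr20:63956387-63956416: atgcgcgccgcccggccaggcccgcaaaga
MACROD1, chr11:64166084-64166113: gagcaggtcgccgctggctggcagtcgcca
The GC content of these stretches was 63.3%, 70.0%, 76.7% and 73.3%, in that order.

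Most EIF4B windows of the 4 genes were elsewhere, in introns, and a second set of sequences comes from there. The UCKL1 window at chr20:63951303-63951401 held 73 IP reads and 6 input reads and had a GC content of 66.7%. The ANKRD11 window at chr16:89320276-89320375 held 15 IP reads and 2 input reads and had a GC content of 50%. Of the windows annotated as intron away from splice sites, these are the ones that lie whole within a RefSeq promoter sequence, and they are shown as examples of intronic sequence, not for their enrichment.
UCKL1 intron window: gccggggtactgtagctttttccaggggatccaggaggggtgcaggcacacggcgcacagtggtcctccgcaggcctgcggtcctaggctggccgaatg
ANKRD11 intron window: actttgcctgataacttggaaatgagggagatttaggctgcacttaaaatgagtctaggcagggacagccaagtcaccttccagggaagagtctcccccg
The last set lies in an intron of UCKL1 that hosts 2 microRNA hairpins, MIR1914 and MIR647, both inside a stretch of EIF4B windows described further on. The mature microRNAs are given with their seed (bases 2 to 8), the part that pairs with targets, in capitals, and no seed is shared among them.
hsa-miR-1914-5p, chr20:63941511-63941532: cCCUGUGCccggcccacuucug
hsa-miR-1914-3p, chr20:63941474-63941495: gGAGGGGUcccgcacugggagg
hsa-miR-647, chr20:63942691-63942711: gUGGCUGCacucacuuccuuc

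FBRSL1 carried 229 EIF4B windows, the highest count of any gene. ANKRD11 carried 139 and ranked 3, UCKL1 103 and ranked 5, and MACROD1 91 and ranked 7. The genes between them that are not described here were GSE1 with 191 windows, the long noncoding RNA XIST with 116 and CAPN15 with 99. Just below MACROD1 came SLC7A1 with 83, SLC7A5 with 76, and KIF1A and NACA:RP11-112B10.2 with 75 each. The median over all genes of the list was 5 windows.

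The 4 genes differ much more in density than in number of windows, because their lengths run from 16.6 kb (UCKL1) to 222.9 kb (ANKRD11). UCKL1 had 6.21 windows per kb and 60.2% of its length lay in EIF4B windows. FBRSL1 had 2.41 per kb and 23.4%, ANKRD11 0.62 per kb and 6.08%, and MACROD1 0.54 per kb and 5.32%. The median over the genes with at least 20 windows was 0.82 per kb and 7.26%. By density, UCKL1 ranked 20 and FBRSL1 96 among 429 such genes with a known length, and ANKRD11 (258) and MACROD1 (283) stood below the middle. A high count thus went with dense coverage in UCKL1 and FBRSL1 and with a long gene in ANKRD11 and MACROD1.

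**Figure D1:**
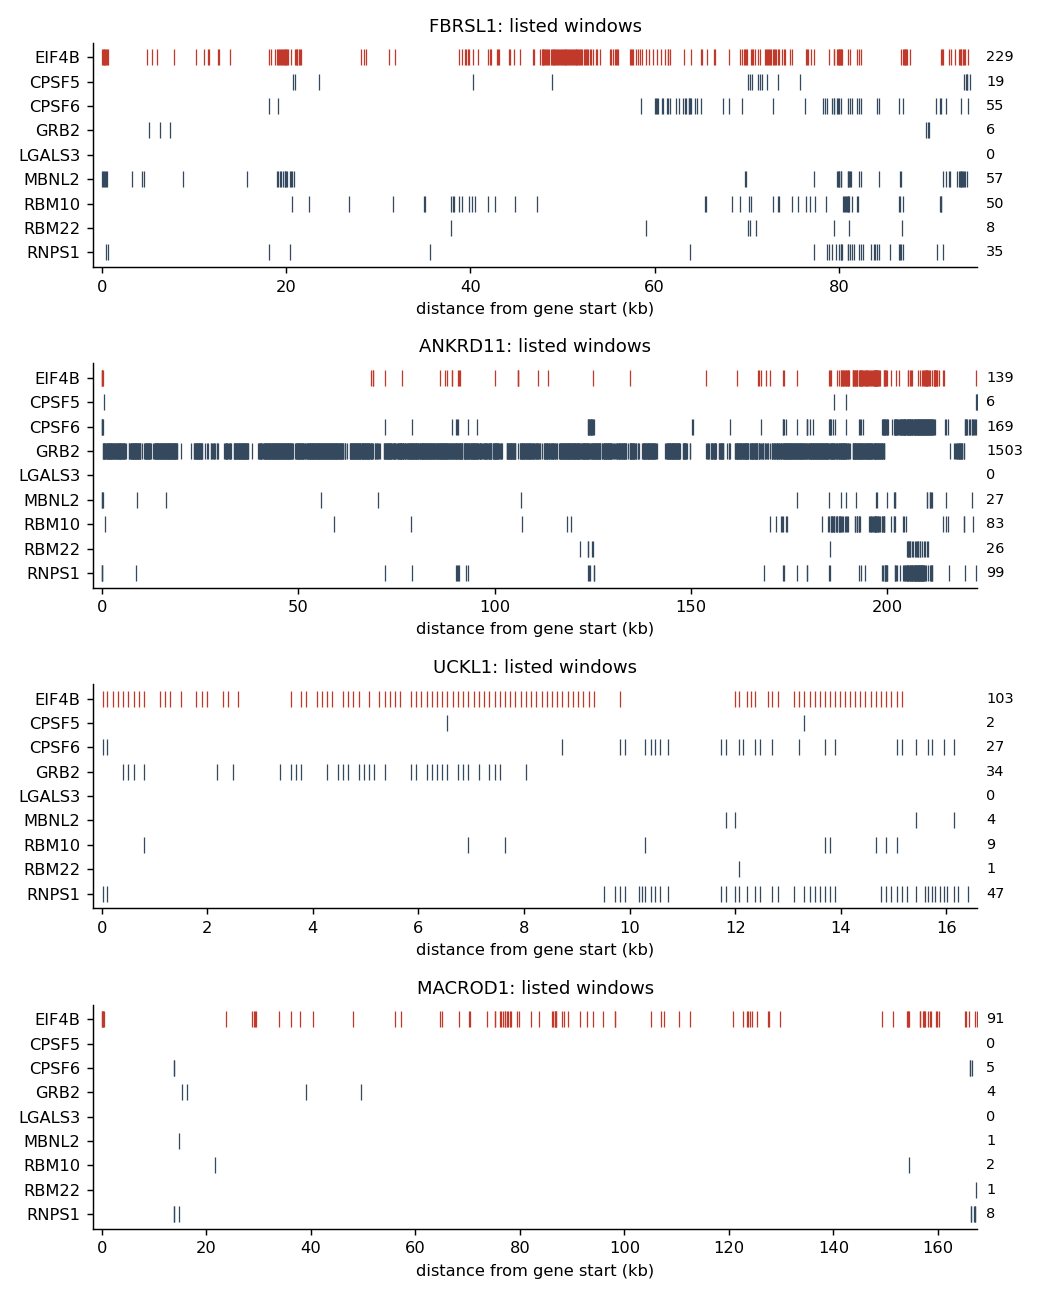
Place of every listed window in the 4 genes, for EIF4B (red) and the other 8 proteins (dark blue); the horizontal axis is the distance from the annotated gene start in kb, each tick is a window, and the number of windows of each list stands at the right. The EIF4B ticks of FBRSL1 crowd near 50 kb, those of ANKRD11 near 190 kb, those of UCKL1 run along most of the gene, and those of MACROD1 are spread thinly, with no tick of LGALS3 in any of the 4 genes.

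Introns held most of the listed EIF4B windows in each of the 4 genes, though for MACROD1 this rested on windows with few reads. The intronic share, counting windows whose leading feature type was an intron or a splice-site flank, was 85.2% in FBRSL1 (195 of 229), 76.3% in ANKRD11 (106 of 139), 96.1% in UCKL1 (99 of 103) and 91.2% in MACROD1 (83 of 91). Over the whole list it was 14.6%. In MACROD1 it was 40% among the 5 windows with at least 5 input reads and 0% among the 5 with at least 50 IP reads, while in the other 3 genes it stayed above 50% under both limits. The 4 genes therefore held 4.83% of the list's 10002 intronic windows against 0.82% of all its windows, while 2424 genes had an intronic EIF4B window. Of the 443 genes with at least 20 windows, 112 (25.3%) had over 50% of them in introns, so the 4 genes were not alone in this. By intronic windows alone FBRSL1 ranked 1, ANKRD11 3, UCKL1 4 and MACROD1 5, with GSE1 (171) at 2.

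The remaining windows were few. In FBRSL1, ANKRD11 and MACROD1, but hardly in UCKL1, those at the 5′ end took a larger share of reads than of windows. Windows in the 5′ UTR or over the start codon numbered 6 in FBRSL1, 7 in ANKRD11, 2 in UCKL1 and 3 in MACROD1. They took 11.5%, 31.0%, 2.19% and 24.6% of the IP reads in each gene's EIF4B windows. Their shares of the windows were 2.62%, 5.04%, 1.94% and 3.30%. Over the whole list such windows made up 40.9% of windows and took 63.0% of IP reads, more than in any of the 4 genes. Reads are counts that the authors summed over the 2 libraries of a kind, so no error over libraries can be given for them. In bulk libraries, fewer cells with an RNA and less RNA per cell cannot be told apart. Coding windows numbered 22, 25, 2 and 4, and 3′ UTR windows 2, 1, 0 and 1, again in the order FBRSL1, ANKRD11, UCKL1 and MACROD1.

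Enrichment is given as the authors' own value, a log2 odds ratio of IP over input, for the lower and the higher replicate of each window. It serves here only to describe and rank windows within a list. For FBRSL1 the median over the EIF4B windows was 2.65 for the lower value and 3.88 for the higher. It was 2.06 and 2.54 for ANKRD11, 2.42 and 3.56 for UCKL1, and 2.57 and 3.89 for MACROD1. Over the whole list it was 2.81 and 3.89. All 4 lower-replicate medians thus lay below that of the list, which is made mostly of exonic windows. Among intronic windows alone the lower-replicate medians were 2.65, 2.09, 2.42 and 2.53, beside 2.46 over all intronic EIF4B windows. The distance between the replicates of a window had a median of 0.90 in FBRSL1, 0.41 in ANKRD11, 0.69 in UCKL1 and 0.74 in MACROD1. Replicates of the same window were closest in ANKRD11, where input reads were also most numerous.

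**Figure D2:**
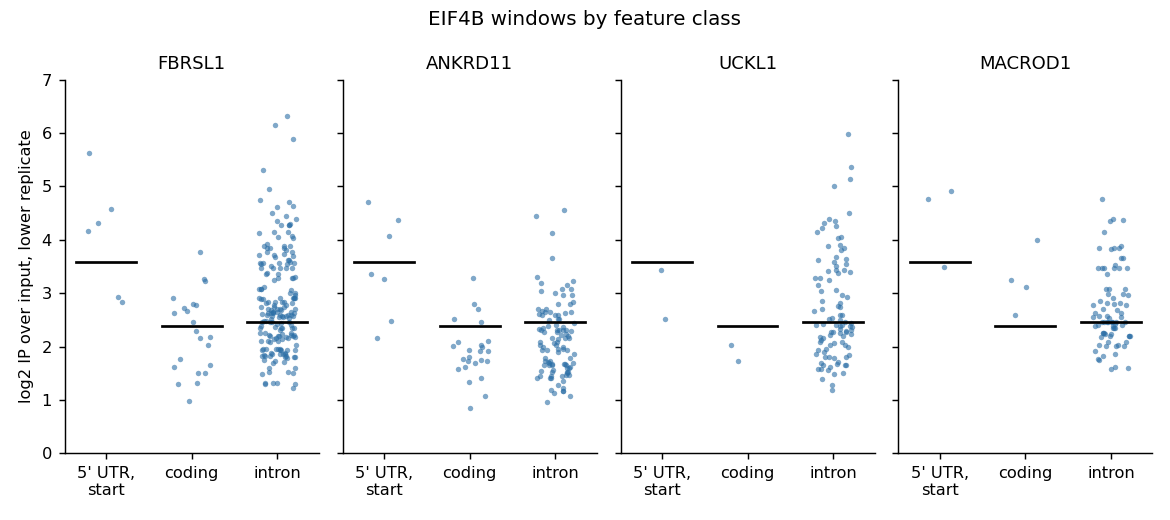
Log2 enrichment of IP over input in the lower replicate (vertical axis) of each EIF4B window (points) by feature class, one panel per gene, with the median over all genes of the EIF4B list as a black line. Some intronic windows of FBRSL1 and UCKL1 lie above 5, higher than any coding window of the 4 genes, and the 5′ end windows are few.

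Read depth and q-values differed among the 4 genes. The authors give a q-value per replicate, and the larger of both was at most 0.05 in 69.7% of all EIF4B windows and in 50.1% of the intronic ones. It was in 55.9% of FBRSL1 windows (128 of 229), 59% of ANKRD11 windows (82 of 139), 75.7% of UCKL1 windows (78 of 103) and 31.9% of MACROD1 windows (29 of 91). For intronic windows alone the shares were 53.3%, 53.8%, 74.7% and 27.7%. UCKL1 stood above the background of intronic windows, FBRSL1 and ANKRD11 near it, and MACROD1 below it. A median window held 38 IP reads and 3 input reads in FBRSL1, 47 and 10 in ANKRD11, 62 and 5 in UCKL1, and 19 and 2 in MACROD1, beside 46 and 5 over the list. No input read at all fell in 27 windows of FBRSL1 (11.8%) and 18 of MACROD1 (19.8%), beside 7.27% over the list. Every window of ANKRD11 and UCKL1 had at least 1. For intronic windows these shares were 13.8% in FBRSL1 and 20.5% in MACROD1, beside 10.4% over all intronic EIF4B windows.

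The GC content of the intronic EIF4B windows had a median of 66% in FBRSL1, 56.8% in ANKRD11, 64.6% in UCKL1 and 58% in MACROD1. Over all intronic EIF4B windows it was also 58%, and over all intronic windows of GRB2 it was 41%. FBRSL1 and UCKL1 were thus richer in GC than the usual EIF4B intron window, and ANKRD11 and MACROD1 were not. Over all introns of a gene, windows of the other lists outside the EIF4B list had a median of 65.7% in FBRSL1 (87 windows) and 63.6% in UCKL1 (15), near the EIF4B windows of those genes. In ANKRD11 they had 52% (1471 windows), below the EIF4B windows, and in MACROD1 71.6% (11), above them.

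The EIF4B windows of FBRSL1 were partly scattered and partly packed: they formed 108 runs, 75 of them a single window, and 46.3% of the windows lay in runs of at least 4. Away from its splice sites, a single intron held 84 of them (36.7%), which lay between 38.8 and 57.3 kb from the gene start. Within it, 35 windows followed each other without a gap over 3484 nt, at chr12:132538842-132542325. The whole list has 9 such runs of at least 30 windows. These 35 windows took 2840 IP reads against 72 input reads, which was 22.3% of the gene's IP reads, with 24 to 163 IP reads per window and a median GC content of 68%. Their median lower-replicate log2 enrichment was 3.62, and 31 of the 35 met the q-value limit of 0.05. Only 1 of them was also listed for another protein, CPSF5.

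The 3 strongest EIF4B windows of FBRSL1 all lay in that run. The window at chr12:132540534-132540633 had 122 IP reads, no input read and a log2 enrichment of 6.32 (lower replicate) and 6.87 (higher replicate). It ranked 278 in the list of 68716. The window at chr12:132539738-132539836 had 110 IP reads and no input read (6.16 and 6.73), and the one at chr12:132540733-132540832 had 94 and none (5.90 and 6.53). Next was a window in the 5′ UTR at chr12:132490319-132490402, with 324 IP reads, 3 input reads, a log2 enrichment of 5.64 and 5.73 and a GC content of 89.3%. After it came chr12:132541928-132542026, again in the run, with 59 IP reads, no input read and 5.30 and 5.82. Among these 5 the 5′ UTR window was the only one with input reads. With an input of 0 the enrichment rests on the authors' baseline, which the sources used here do not give.

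At the 5′ end of FBRSL1, 8 windows in a row from the transcription start into the coding sequence took 1609 IP reads against 47 input reads. Their median GC content was 84.2%, the highest of the runs described here. The first window had 503 IP reads and 10 input reads, with a log2 enrichment of 4.59 and 4.99, and the last had 37 and 4, with 2.16 and 2.66. The enrichment in the lower replicate was above 4 in the first 4 windows and below 3 in the 4 that follow. A further stretch, 13 windows at chr12:132509150-132510448 in an intron about 19 kb in, took 882 IP reads against 44, and 9 of its windows were also listed for MBNL2, a splicing regulator. Farther on, a window annotated as an exon of a long noncoding RNA, at chr12:132560047-132560138, had 371 IP reads and 9 input reads, with a log2 enrichment of 4.39 and 4.67.

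ANKRD11 has a strong 5′ end and a crowd of weaker windows far downstream. The first 4 windows, at chr16:89490245-89490561 in the 5′ UTR, took 3510 IP reads against 99 input reads, 28.7% of the gene's IP reads. The window at the start itself had 1011 IP reads, 20 input reads and a log2 enrichment of 4.72 and 5.06, which ranked 5254 in the list. The next had 1445 and 40, with 4.38 in both replicates, then 640 and 20 (4.07 and 4.38) and 414 and 19 (3.28 and 3.95). Enrichment fell step by step over these 4 windows. No coding window of the gene was above 3.28 in the lower replicate.

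The last 25% of ANKRD11's length held 79.9% of its EIF4B windows and 19.2% of its GRB2 windows. This share was 83.3% for CPSF5 (5 of 6), 84.0% for CPSF6 and 70.4% for MBNL2. It was 92.8% for RBM10, 80.8% for RBM22 and 82.8% for RNPS1. A majority toward the gene's end was thus not particular to EIF4B, and GRB2 was the exception. The lists differed, however, in the kind of windows they held. Coding windows made up 76 of 169 for CPSF6, 62 of 99 for RNPS1 and 20 of 26 for RBM22, beside 25 of 139 for EIF4B. The median EIF4B window lay 193.5 kb from the start and the median GRB2 window 98.4 kb. Away from its splice sites, a single intron held 60 EIF4B windows (43.2%), which lay 187.3 to 198.0 kb from the start. Among them was a run of 11 at chr16:89292976-89294068 with 1387 IP reads against 158. Enrichment there was modest, with a median of 2.15 in the lower replicate over the 60 windows. All 60 were also in the GRB2 list and 31 of them in the RBM10 list. In the stretch that these 60 windows span, GRB2 windows covered 87.2% of the length and RBM10 windows 34.9%. GRB2 had 95 windows in it, RBM10 38, CPSF6 and MBNL2 5 each, RNPS1 3, CPSF5 1 and RBM22 none. GRB2 and RBM10 were thus the only other lists with many windows there.

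Apart from these, 3 adjoining intronic windows of ANKRD11 stood alone about 106 kb from the start, at chr16:89384415-89384714. They took 1079 IP reads against 40 input reads, 8.83% of the gene's IP reads. Going along the genome, they had 172, 768 and 139 IP reads and a lower-replicate log2 enrichment of 4.55, 4.45 and 4.14. The replicates were close, with higher values of 5.05, 5.02 and 4.20. The nearest other EIF4B windows were 4895 nt and 5694 nt away. No other intronic EIF4B window of the gene reached 4, although the intron around them held 24 such windows. GRB2 had 1 window in the stretch, with 24 IP reads, 3 input reads and 2.09 in the lower replicate, and no other protein had any.

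**Figure D3:**
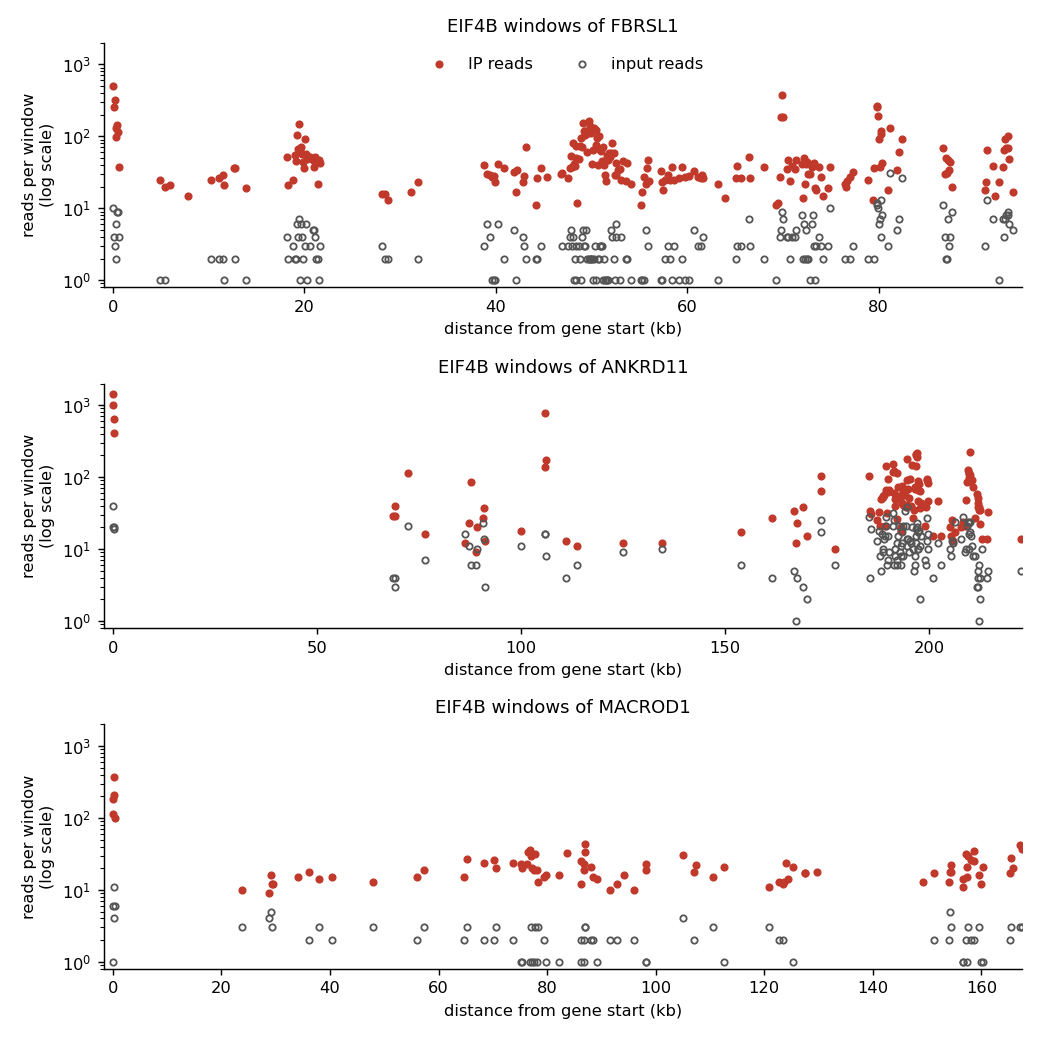
IP reads (filled red) and input reads (open grey) in each EIF4B window of FBRSL1, ANKRD11 and MACROD1 on a log scale, by distance from the gene start in kb; reads are sums over 2 libraries of a kind and windows with no input read have no grey point. IP reads at the 5′ end reach 503 in FBRSL1, 1445 in ANKRD11 and 367 in MACROD1, the isolated point of 768 near 106 kb is the lone intronic stretch of ANKRD11, and no intronic window of MACROD1 is above 44.

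UCKL1 is the most densely covered of the 4. Its EIF4B windows fell into 20 runs, and 75.7% of them lay in runs of at least 4, beside 31.9% over the list. For ANKRD11 that share was 32.4% and for MACROD1 9.89%. The longest run of UCKL1 had 36 windows over 3566 nt at chr20:63947044-63950609, between 5.86 and 9.32 kb from the start, and took 3396 IP reads against 156. A single window in it, chr20:63948629-63948727, took 942 of these reads, with 28 input reads and a log2 enrichment of 4.03 and 4.62. The strongest window by enrichment was the next one, chr20:63948728-63948826, with 142 IP reads, 3 input reads and 5.99 and 6.51, which ranked 530 in the list. Then came 5.37 and 5.91 at chr20:63949025-63949123 (112 IP and 2 input reads), 5.13 and 5.14 at chr20:63949421-63949519 (76 and 2), and 5.01 and 5.90 at chr20:63948431-63948529 (93 and 3). The next in rank lay in the other long run.

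That other run had 22 windows over 2144 nt at chr20:63941209-63943352, 13.1 to 15.2 kb from the start, and took 6134 IP reads against 272, which was 50.8% of the gene's IP reads. It holds both microRNA hairpins. MIR1914 (chr20:63941465-63941544) touched 2 EIF4B windows with 244 IP reads and 21 input reads, and MIR647 (chr20:63942631-63942726) touched 2 with 334 and 28. The reads did not peak on the hairpins: the highest window, chr20:63942286-63942381, lay between them and had 809 IP reads and 28 input reads (3.90 and 4.32). The most enriched, chr20:63941901-63941996, also lay between them, with 535 and 12 (4.50 and 4.78). Windows over MIR1914 had a lower-replicate log2 enrichment of 1.86 and 1.99, and the stronger of those over MIR647 had 4.32.

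**Figure D4:**
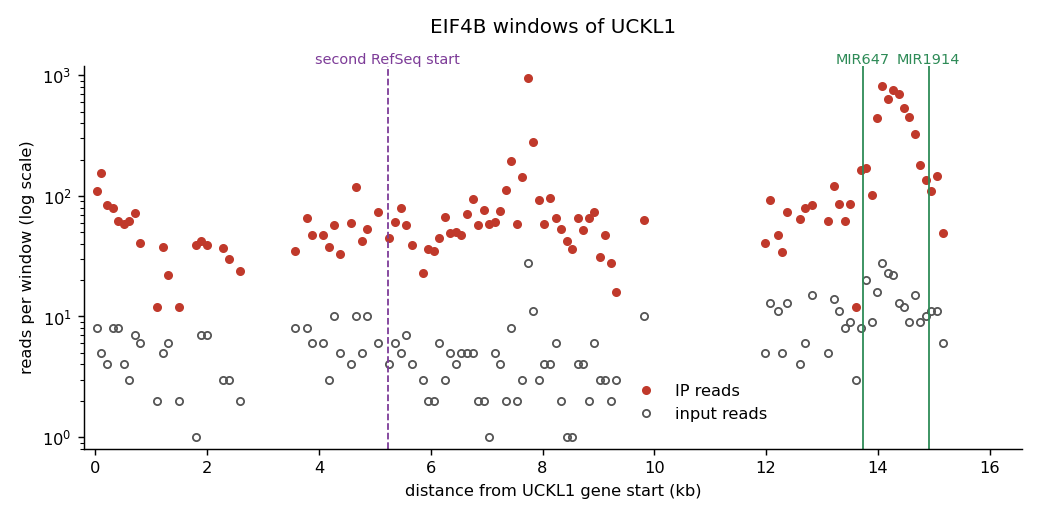
IP reads (filled red) and input reads (open grey) in each EIF4B window of UCKL1 on a log scale, by distance from the gene start in kb, with the 2 microRNA hairpins (green) and the second RefSeq start (dashed) marked. The points rise to 942 IP reads at 7.74 kb and to 809 between the hairpins, where input reads reach 28.

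The 5′ end of UCKL1 was less enriched than those of the other 3 genes, whose strongest 5′ UTR windows had 5.64, 4.72 and 4.91 in the lower replicate. Its 44-nt 5′ UTR window had 109 IP reads, 8 input reads and a log2 enrichment of 2.52 and 3.19, and the start codon window had 156, 5 and 3.44 and 5.08. RefSeq gives UCKL1 a second start, 5.23 kb downstream. The EIF4B window over it, chr20:63951105-63951203, had 45 IP reads, 4 input reads and 2.03 and 3.37.

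MACROD1 is the sparse case. Its 91 windows fell into 72 runs, 60 of them a single window. Away from its splice sites, a single intron held 64 of the 91 (70.3%), which lay between 23.7 and 149.3 kb from the start. Intronic windows had 9 to 44 IP reads, with a median of 18, and 17 of the 83 had no input read. The only run of 5 was at the 5′ end, at chr11:64165697-64166113, and it took 970 of the gene's 2690 IP reads (36.1%) against 28 input reads. From the transcription start on, these 5 windows had 112, 182, 367, 208 and 101 IP reads and a lower-replicate log2 enrichment of 4.91, 3.49, 4.77, 3.25 and 3.12. They were the only windows of the gene with at least 50 IP reads. The replicates lay more than 1 apart in all 3 windows of the 5′ UTR and start codon, with a median distance of 1.63. The higher values were 6.29 at the transcription start and 6.54 at the start codon.

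Among the intronic windows of MACROD1, the strongest was chr11:64082360-64082459 with 33 IP reads, no input read and 4.77 and 4.80. It was followed by chr11:64089658-64089757 with 34 and none (4.40 and 5.13) and chr11:64132044-64132143 with 15 and none (4.37 and 4.69). All 3 had an input of 0, so these values again rest on the authors' baseline. Of the 91 windows, 54 (59.3%) lay within the span of FLRT1 (chr11:64035931-64119171), a gene annotated on the opposite strand. That span is itself a large part of MACROD1, and whether 54 windows exceed what its length would give was not tested. The sources used here do not say whether reads were counted by strand. In ANKRD11, 26 windows lay within the span of LOC128462377, annotated on the same strand, and reads of the 2 cannot be told apart. A further 26, in the stretch of the intron with 60 EIF4B windows, lay within LOC124903757, a protein-coding annotation, and 19 of the UCKL1 windows (18.4%) lay within UCKL1-AS1, a long noncoding RNA. The RefSeq table used here gives no strand for these, and whether their RNA contributed reads was not tested.

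The other 8 lists set these patterns beside different binding profiles in the same genes. A window in the CPSF5 list, a subunit of the cleavage factor that acts at poly(A) sites, was found for 3 of the 4 genes, beside 65.6% of all genes with an EIF4B window. All 4 genes had windows of CPSF6 (86.6% of genes), GRB2 (48.1%), MBNL2 (67.9%), RBM10 (48.3%), RBM22 (24.8%) and RNPS1 (90.1%). None had a window of LGALS3 (3.48%). The percentages are those of all genes with an EIF4B window.

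In number of windows, ANKRD11 stood high in several lists and MACROD1 in none but that of EIF4B. ANKRD11 ranked second of 5278 genes in the GRB2 list with 1503 windows, 7 of 5093 for RBM10 with 83, 20 of 9517 for CPSF6 with 169 and 37 of 2617 for RBM22 with 26. FBRSL1 ranked 6 of 7026 in the MBNL2 list with 57 windows and 23 in the RBM10 list with 50, but 3849 in the GRB2 list with 6. UCKL1 ranked 555 of 9831 in the RNPS1 list with 47 windows and 2071 in the GRB2 list with 34. MACROD1 had 5 windows of CPSF6, 8 of RNPS1, 4 of GRB2, 2 of RBM10 and 1 each of MBNL2 and RBM22. GRB2, an adaptor of receptor signalling, covered 67.3% of the length of ANKRD11.

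Taking the strongest window of each other protein in each gene, 7 of 27 were themselves EIF4B windows, 6 more directly adjoined one, and 14 did neither. Both ends of the range over all windows of a protein in a gene rest on few windows. The share in the EIF4B list ran from 0% (such as GRB2 in FBRSL1, with 6 windows) to 100% (such as CPSF5 in UCKL1, with 2). In the largest sets, both in ANKRD11, it was 5.72% of 1503 GRB2 windows and 29.6% of 169 CPSF6 windows. Whether the strongest windows differ from the rest in this was not tested. In ANKRD11 the strongest windows included a GRB2 window in an intron at chr16:89445060-89445159, with 370 IP reads, no input read and a lower-replicate log2 enrichment of 8.25. RNPS1, which marks exon junctions, had its strongest ANKRD11 window in coding sequence at chr16:89281763-89281861, with 133 IP reads, no input read and 6.05. In UCKL1 the strongest RNPS1 window was also coding, at chr20:63945651-63945722, with 135 IP reads, 1 input read and 6.06. CPSF5 had its strongest window in the 3′ UTR of ANKRD11 (75 IP reads, 3 input reads, 4.70) and of FBRSL1 (47, 3 and 4.37), near the gene ends. None of these 5 windows was in the EIF4B list, and that of CPSF5 in FBRSL1 adjoined an EIF4B window.

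Counting EIF4B windows that appear in another list at the same coordinates, the 4 genes ranged from nearly all to nearly none. The share was 89.2% in ANKRD11 (124 of 139), 51.5% in UCKL1 (53 of 103), 31.9% in FBRSL1 (73 of 229) and 2.20% in MACROD1 (2 of 91). Over the whole list it was 60.5%. For intronic windows it was 85.8%, 49.5%, 21.5% and 1.20% in the same order, and 34.0% over the list. The lists differ in length and depth, so no test of these shares was made.

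In ANKRD11 the list that shared the most EIF4B windows was that of GRB2. With that list left out, 60.4% of the gene's EIF4B windows were still shared. Of its 106 intronic EIF4B windows, 84 (79.2%) were in the GRB2 list, and 27 of 99 (27.3%) were in UCKL1. None was in FBRSL1 or MACROD1, and the share over all intronic EIF4B windows was 6.52%. GRB2 windows covered 67.3% of the length of ANKRD11, 20.3% of UCKL1, 0.62% of FBRSL1 and 0.24% of MACROD1. Whether the sharing exceeded what this coverage alone would give was not tested. Seen from the GRB2 side the overlap in ANKRD11 was small, since 86 of its 1503 GRB2 windows (5.72%) were in the EIF4B list. In UCKL1 it was 27 of 34 (79.4%). In the long ANKRD11 intron with 24 EIF4B windows, GRB2 windows covered 71.9% of the stretch and 17 of the 24 were shared.

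**Figure D5:**
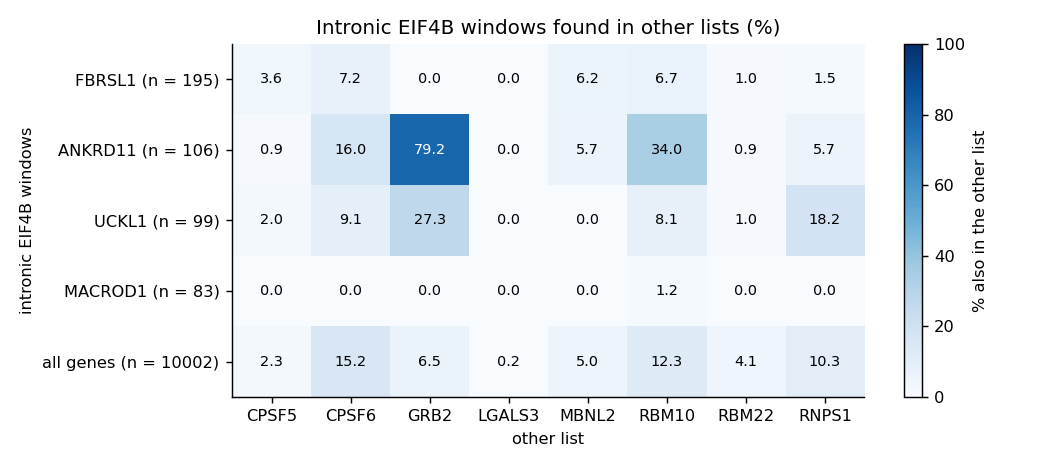
Share (%) of the intronic EIF4B windows of each gene (rows, with their number) that are listed at the same coordinates for each other protein (columns), with all genes of the EIF4B list in the bottom row; darker means a larger share. ANKRD11 with GRB2 is the darkest cell at 79.2%, MACROD1 is near 0 throughout, and FBRSL1 has no cell above 7.18%.

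The 2 long runs of UCKL1 differed in which other proteins were listed with EIF4B. In the run of 36 windows there were 15 GRB2 windows and none of RNPS1. In the run of 22 windows with the hairpins there were 13 RNPS1 windows, 5 each of RBM10 and CPSF6 and none of GRB2. On MIR647, RBM10 had 2 windows with 232 IP reads against 13 and RNPS1 2 with 127 against 9, so EIF4B was not the only protein listed there. In FBRSL1, 31 of the 34 non-intronic EIF4B windows (91.2%) were in another list, against 42 of the 195 intronic ones (21.5%). Of the 34, 27 (79.4%) were in the MBNL2 list. Over the whole EIF4B list, 65.0% of non-intronic windows were in another list, against 34.0% of intronic ones. The MBNL2 list held 28.7% of the non-intronic ones, so the contrast in FBRSL1 has the direction of the whole list. The 35-window run stood nearly alone, with 1 shared window.

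None of 8 relatives of the 4 genes, taken by family or by shared activity, had more than 1 intronic EIF4B window. The 4 genes were chosen for their many EIF4B windows, so lower counts in their relatives are given as a description only. AUTS2, ANKRD12 and MACROD2 had no EIF4B window at all, although AUTS2 had 1496 GRB2 windows and ANKRD12 had 150. FBRS, the other relative of FBRSL1, had 46 EIF4B windows, none intronic: 12 in the 5′ UTR or at the start, 29 coding and 5 in the 3′ UTR. UCK1 had 3 EIF4B windows and UCK2 9, of which 1 was intronic. OARD1, which also removes ADP-ribose, had 5, none intronic, and ADPRS had 4, of which 1 was.

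The initiation factors that work with EIF4B gave a setting for these counts. EIF4G1, the scaffold of the cap-binding complex, had 38 EIF4B windows, of which 9 were intronic, and EIF4G3 had 35, of which 4 were. PABPC1 had 12, EIF4H 11, EIF3A 8, EIF4B itself 6, EIF4A2 and EIF4E 4 each, and EIF4A1 none. Among these 9 genes none had the intronic share of the 4 described here.

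By their numbers of windows over the 9 lists, on a scale of log2(windows + 1), the genes nearest to FBRSL1 were ZNF598 (distance 2.84), AGAP3 (3.23) and KHSRP (3.42), out of 442 compared. Those nearest to ANKRD11 were EIF4G3 (4.17), RPTOR (4.66) and CSNK1D (4.83). Those nearest to UCKL1 were TRAPPC12 (2.42), MAEA (2.45) and TBC1D16 (2.48), and those nearest to MACROD1 included EVI5L (2.46) and NACA:RP11-112B10.2 (2.82). ANKRD11 thus had the most distant neighbours. In intronic share the neighbours named here varied, from 2.94% in KHSRP to 87.2% in MAEA.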

How the data were processed

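The 9 deposited tables list windows that the authors called enriched in IP over input, in build hg38 per the submitters' processing notes. The sources used here name no aligner, caller or annotation version. The deposited counts are whole IP and input reads of each window that the authors added up over the 2 replicates, so no test over libraries could be made and library depth is unknown. They also deposited the log2 odds ratio, the p-value and q-value of the lower and higher replicate, and the GC fraction of each window, printed here as a percentage. Both replicates had called every listed window, with q-values up to 0.20. Windows were at most 100 nt long.

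Windows were taken by gene name, and windows of 2 lists were matched by coordinates and strand. Adjoining windows formed a run. The forming of runs and the matching of windows between lists were tested on simulated data, and the other calculations were not. Gene ends and sequences came from RefSeq GRCh38.p14. The genes named are the 4 members, their neighbours in rank (up to 20 genes), the 5 strongest EIF4B windows and the strongest window of each other list per gene, the 3 most alike genes (of which 1 is not reported here), and 2 gene lists (relatives and initiation factors). The members and lists were chosen with earlier results of these data known. Alternative filters were applied as described in the closing section. Python 3.11.15, numpy 2.4.6, pandas 2.3.3, scipy 1.17.1 and matplotlib 3.10.9 were used.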

Additional observations from a re-analysis of the deposited data

How the results depend on the processing

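No paired analysis was possible because the deposited tables sum reads over replicates and hold no column per library, and for the same reason no replicate could be left out. Of 112 alternatives, 54 were scored as leaving the value in place and 58 as moving it. Numbers of windows were scored by a change of 1.5-fold. Windows per kb are scored among the 58, but they are in another unit than the count, so that score carries no information. A minimum on input or IP reads took the intronic share of MACROD1 below 50%. Shallow windows set most of the limits, and MACROD1 depends on them most.

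Requiring that neither replicate's q-value exceed 0.05 left 128 windows in FBRSL1, 82 in ANKRD11 and 29 in MACROD1, and their ranks became 1, 4 and 52, with UCKL1 at 5. The median GC content became 69% in FBRSL1 and 56.1% in MACROD1, the median log2 enrichment of ANKRD11 became 2.43, the intronic share of MACROD1 79.3%, and the shared share 39.8% in FBRSL1 and 93.9% in ANKRD11.

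Keeping windows with at least 5 input reads left 54 in FBRSL1 (rank 16), 63 in UCKL1 and 5 in MACROD1 (rank 2027). The intronic share became 53.7% in FBRSL1 and 40% in MACROD1, the median GC content 70.9%, 66% and 71.2%, the median enrichment 1.91 in FBRSL1 and 3.12 in MACROD1, and the shared share 64.8% and 0%.

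Keeping windows with at least 50 IP reads left 74 in FBRSL1, 65 in ANKRD11, 67 in UCKL1 and 5 in MACROD1 (rank 1561). The intronic share became 66.2% in FBRSL1, 67.7% in ANKRD11 and 0% in MACROD1. The median GC content became 71%, 62.6%, 66% and 71.7%, the median enrichment of MACROD1 3.49, and the shared share 45.9% in FBRSL1, 96.9% in ANKRD11, 62.7% in UCKL1 and 0% in MACROD1.

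Weighting windows by IP reads gave an intronic share of 67.1% in FBRSL1, 54.5% in ANKRD11 and 60.3% in MACROD1. The higher replicate gave a median enrichment of 3.88 in FBRSL1, 2.54 in ANKRD11, 3.56 in UCKL1 and 3.89 in MACROD1, and the mean of the replicates 3.01 in UCKL1 and 3.17 in MACROD1. Leaving out the GRB2 list gave a shared share of 60.4% in ANKRD11 and 28.2% in UCKL1, and counting adjoining windows as shared gave 45.0% in FBRSL1, 94.2% in ANKRD11 and 74.8% in UCKL1. Counted as runs, there were 108 regions in FBRSL1, 85 in ANKRD11 and 20 in UCKL1, and per kb 2.41, 0.62, 6.21 and 0.54 windows in FBRSL1, ANKRD11, UCKL1 and MACROD1.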
